A study of Mus musculus with 768 samples.

Results

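Lin28b, Hmga2, Igf2bp1, Igf2bp2 and Igf2bp3 are 5 growth regulator genes, read here in organoids grown from the neonatal mouse cochlea. They were chosen by symbol, and all 5 were found among the 52636 genes of both deposited count files. Organoids grew from P2 mouse cells sorted by flow cytometry for the greater epithelial ridge (GER), an epithelium on the inner side of the hair cells. The mice carried Sox2-GFP, Fgfr3-CreERT2 and Ai14-tdTomato, a green reporter of Sox2 and an inducible Cre with a red reporter. All groups carried the same alleles and grew in the same medium with EGF, FGF2, IGF1, CHIR99021, valproic acid and the TGFβ receptor inhibitor 616452, and differed in the day of culture. Single cells were picked by hand and sequenced with SmartSeq2, a full-length cDNA method that keeps neither strand nor molecular identifiers. The labels gave each of the 768 cells a day and a replicate number, taken here as a culture, with 3 cultures for day 1, 3 for day 3 and 5 for day 7. They do not say whether cultures came from separate mice, so that p-values measure the spread between cultures, which may be technical.

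The 5 genes belong to a fetal growth programme that is tied together by the let-7 microRNAs. LIN28B is an RNA-binding protein that blocks the maturation of let-7, and let-7 in turn silences mRNAs with matching sites, Lin28b among them. HMGA2 is a chromatin protein that bends AT-rich DNA and is abundant in embryonic and stem cells. IGF2BP1, IGF2BP2 and IGF2BP3 are related RNA-binding proteins that stabilise or localise mRNAs such as Igf2 and Myc. In the cochlea, LIN28B and let-7 are known for setting how readily supporting cells divide and form new hair cells, a capacity that is lost soon after birth.

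The link between the genes is visible in their sequences. Mature let-7 microRNAs from RefSeq (GRCm38.p6) are shown with the seed, bases 2 to 8, in capitals, because the seed is what the 5 mRNAs match.
mmu-let-7a-5p: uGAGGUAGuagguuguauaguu
mmu-let-7g-5p: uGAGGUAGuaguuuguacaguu
mmu-let-7i-5p: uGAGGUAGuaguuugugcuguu
mmu-miR-98-5p: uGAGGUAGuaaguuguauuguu
All 9 mature names of the family that were used, from 11 loci, had this 1 seed. The let-7 locus Mirlet7a-2, which had 0 reads in these data, was not among the 11. The complement of the seed in DNA letters, CTACCTC, was searched on the sense strand of the longest annotated 3' untranslated region (UTR) of each gene. It was found in all 5 members, 14 times in all, and 7 of the 14 matches were followed by A. The match nearest the stop codon in Lin28b and in Hmga2, and the single matches of Igf2bp2 and Igf2bp3, are shown with the match in capitals, together with the first of Igf2bp1.
Lin28b, UTR position 36: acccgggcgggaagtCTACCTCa
Hmga2, UTR position 58: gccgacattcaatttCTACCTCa
Igf2bp1, UTR position 1715: gctgtgcgaagtaaaCTACCTCa
Igf2bp2, UTR position 1313: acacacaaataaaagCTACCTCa
Igf2bp3, UTR position 548: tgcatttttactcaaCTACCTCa
Lin28b, Hmga2 and Igf2bp1 each held 4 matches. Of 21022 genes with an annotated UTR, 9.02% held at least 1 match and 12 genes held at least 4. Among UTRs within 20% of the member's length, at least 4 matches were present in 0.158% for Lin28b, 0.0891% for Hmga2 and 0.178% for Igf2bp1. A single match as in Igf2bp2 and Igf2bp3 was less rare, at 12.0% and 13.3% of UTRs of similar length. A match describes the letters of the annotated UTR and does not show that let-7 acts there.

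**Figure D1:**
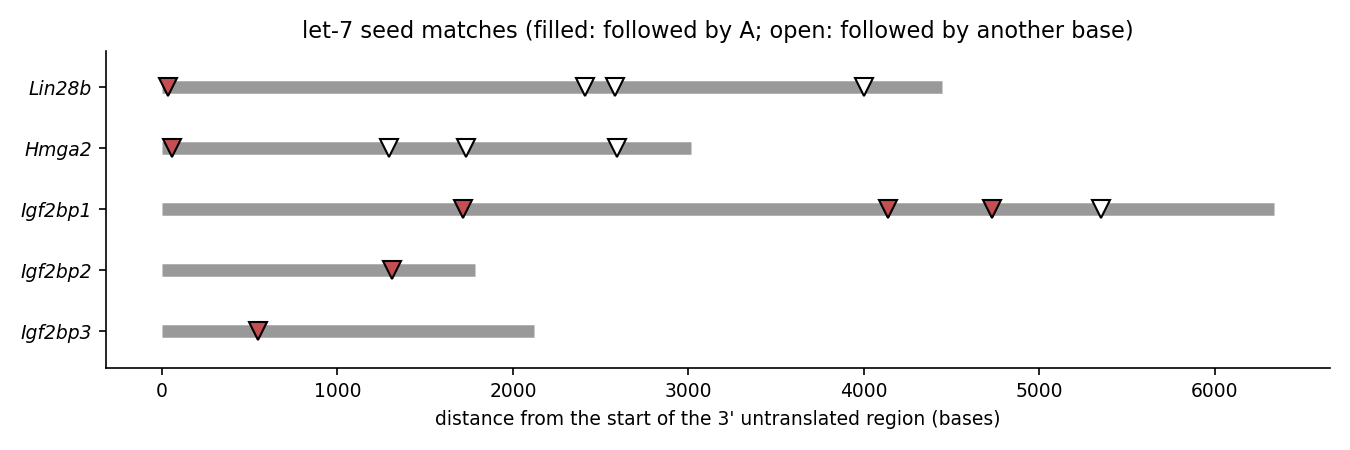
Map of the annotated 3' UTR of each member (grey bar, in bases from its start), with triangles at the let-7 seed matches; filled triangles are followed by A. Lin28b, Hmga2 and Igf2bp1 hold 4 matches each, and Igf2bp2 and Igf2bp3 hold 1 each.

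Lin28b (ENSMUSG00000063804.8) lies on the minus strand at chr10:45376620-45486395 (GRCm38) and Hmga2 (ENSMUSG00000056758.14) on the minus strand of the same chromosome at chr10:120361275-120476469. Igf2bp1 (ENSMUSG00000013415.9) is at chr11:95957163-96005940 and Igf2bp3 (ENSMUSG00000029814.10) at chr6:49085223-49214957, both on the minus strand. Igf2bp2 (ENSMUSG00000033581.16 in the files) is at chr16:22059009-22163299 on the minus strand, by a later version of its identifier in the annotation. Reads were not kept by strand, so that a gene and an antisense partner cannot be told apart. An exon of Igf2bp3 overlaps the coding gene Malsu1 on the other strand, which had 22.1 to 23.6 CPM (reads scaled to a common library total) on day 1, 21.8 to 33.0 on day 3 and 19.9 to 34.5 on day 7. Igf2bp3 also had counts that were not whole in 37.1% of its 529 cells with a read, the mark of reads shared with another sequence, and its values are uncertain to that extent. The antisense transcript 1700006J14Rik, which overlaps an exon of Hmga2, had 8 reads over all cultures.

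After filtering, 711 cells remained (182, 228 and 301 on days 1, 3 and 7), and counts were summed per culture over 26391412 to 72483565 reads. The cells carried epithelial transcripts. The summed level of Epcam, Cdh1, Krt8 and Krt18 was 2915 to 4973 CPM on day 1, 2982 to 4920 on day 3 and 1566 to 2456 on day 7. The 8 GER and supporting cell markers summed to 9546 to 13810 CPM on day 1, 3880 to 7568 on day 3 and 2281 to 4155 on day 7. Tectb and Tecta made up most of this sum. Tectb was at 6628 to 11410 CPM on day 1 and 360 to 1341 on day 7, while Tecta and Otoa overlapped between these days. Jag1 went the other way in the mean, at 164 to 224 CPM on day 1 and 206 to 715 on day 7. All 3 endothelial markers stayed under 1 CPM, with Kdr and Pecam1 at 0, the 4 immune markers summed to at most 3.66 CPM, and the 8 otic mesenchyme markers to at most 45.6 CPM. The 5 hair cell markers summed to 0 to 20.5 CPM on day 1, 10.4 to 89.5 on day 3 and 0 to 4.11 on day 7, and the 5 glial and neuronal markers to 42 to 82.4 CPM over all cultures. The share of cycling cells, those with a read in at least 3 of 6 mitotic genes, was 16.5% to 23.7% on day 1, 58.3% to 66.7% on day 3 and 25.3% to 87.0% on day 7.

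Per kilobase of exon, Igf2bp2 had the highest level of the 5 genes and Lin28b the lowest on day 1. Igf2bp2 stood at 8.44 ± 0.854 CPM per kilobase (SD, n = 3 cultures), followed by Igf2bp3 at 3.36 ± 0.427, Hmga2 at 3.09 ± 1.11, Igf2bp1 at 2.11 ± 1.03 and Lin28b at 0.451 ± 0.204. Only Igf2bp2 above the rest and Lin28b below the rest were set apart beyond their spread, and the 3 genes between them overlapped. On day 7 Hmga2 was the lowest in the mean at 0.615 ± 0.500 CPM per kilobase (n = 5), and overlapped with Lin28b at 0.923 ± 0.351. Igf2bp2 at 6.38 ± 1.55 and Igf2bp3 at 5.17 ± 1.28 overlapped on day 7, and so did Igf2bp3 and Igf2bp1 at 3.10 ± 1.198.

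Between days 1 and 7, Hmga2 fell, and it was the only 1 of the 5 genes whose change passed the test. Hmga2 was at 29.3, 14.7 and 18.9 CPM in the 3 day 1 cultures. It was at 9.95, 11.3 and 8.19 CPM on day 3. On day 7 it was at 8.49, 1.15, 6.86, 3.36 and 0.975 CPM. Every day 7 and every day 3 culture was below every day 1 culture, while day 3 and day 7 overlapped through day 7 culture 1. With edgeR's quasi-likelihood test, the log2 fold change from day 1 to day 7 was -2.33 (SE 0.62, Benjamini-Hochberg adjusted p = 0.0407, lower in 5 of 5 cultures). The mean CPM on day 7 was 0.199 of that on day 1. In the same comparison 7.11% of the 17466 genes tested were called, and 17.8% had no overlap between cultures, so that 1 of 5 members called, or without overlap, is read against those shares. The call was close to the threshold. Leaving out any 1 of the 3 day 1 cultures, any 1 of the 3 day 3 cultures, day 7 culture 2 or day 7 culture 4 raised the adjusted p to between 0.0509 and 0.145, while the log2 fold change stayed between -2.76 and -2.07 over all 11 omissions. With the replicate number as a block the fitted change was -2.07 in log2 units (adjusted p = 0.0836 with edgeR, SE 0.61), so that the call was lost in that fit. Replicate numbers 4 and 5 exist only on day 7, so that those cultures add nothing to the change it gives. The summed GER markers, of which Tectb fell most in CPM, and the share of cycling cells moved with the same days. The median mitochondrial share of reads per cell was 2.72% to 4.18% in day 1 cultures and 3.90% to 6.76% in day 7 cultures. Day 7 cultures 2 and 5, which had the lowest Hmga2, also had the fewest genes with a read per thinned cell of all 11 cultures, at medians of 5333 and 5190 against 6216 to 6382.5 on day 1. The part of the GER markers and of these quality measures in the fall was not tested. In non-cycling cells alone the log2 fold change of Hmga2 was -2.86 (SE 1.12, edgeR adjusted p = 0.252). That fit called 182 of 15253 genes tested, and day 7 culture 3 gave it 9 cells.

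The share of cells with a read of Hmga2 was lower in each day 7 culture than in any earlier culture. The difference did not pass the test after adjustment, which no comparison could do by itself. Each cell was thinned to 200000 reads for this, and the 695 cells that deep were used. A read of Hmga2 was present in 55.8%, 32.9% and 52.6% of cells in the day 1 cultures. On day 3 the shares were 35.7%, 30.3% and 33.3%. On day 7 they were 23.1%, 5.41%, 24.6%, 15.4% and 6.67%, while days 1 and 3 overlapped through day 1 culture 2. Mean shares were 47.1% ± 12.4 on day 1 (SD, n = 3), 33.1% ± 2.71 on day 3 (n = 3) and 15.03% ± 8.94 on day 7 (n = 5). Day 7 against day 1 had an exact permutation p = 0.0179 (two-sided), the smallest that 5 against 3 cultures allow, and an adjusted p = 0.179 over the 15 comparisons of 5 genes and 3 pairs of days. An adjusted p under 0.05 needed several other comparisons at their smallest p as well, and 0.0268 was the lowest possible. The adjusted result therefore does not decide whether the share of Hmga2 fell. Among cells with a read, pooled over the cultures of a day, the median level of Hmga2 was 30 CPM on day 1, 20 CPM on day 3 and 15 CPM on day 7. Here 1 read is worth 5 CPM. The medians of single cultures overlapped between days. They were 45, 20 and 25 CPM on day 1, and 20, 32.5 and 15 CPM on day 3. On day 7 they were 35, 7.5, 20, 15 and 5 CPM. A single cell gave 48.2% of the Hmga2 reads of day 1 culture 2 and 48.6% of the 35 reads of day 7 culture 2. With cells thinned to equal depth before summing, the log2 fold change from day 1 to day 7 was -2.49 (edgeR adjusted p = 0.0258).

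**Figure D2:**
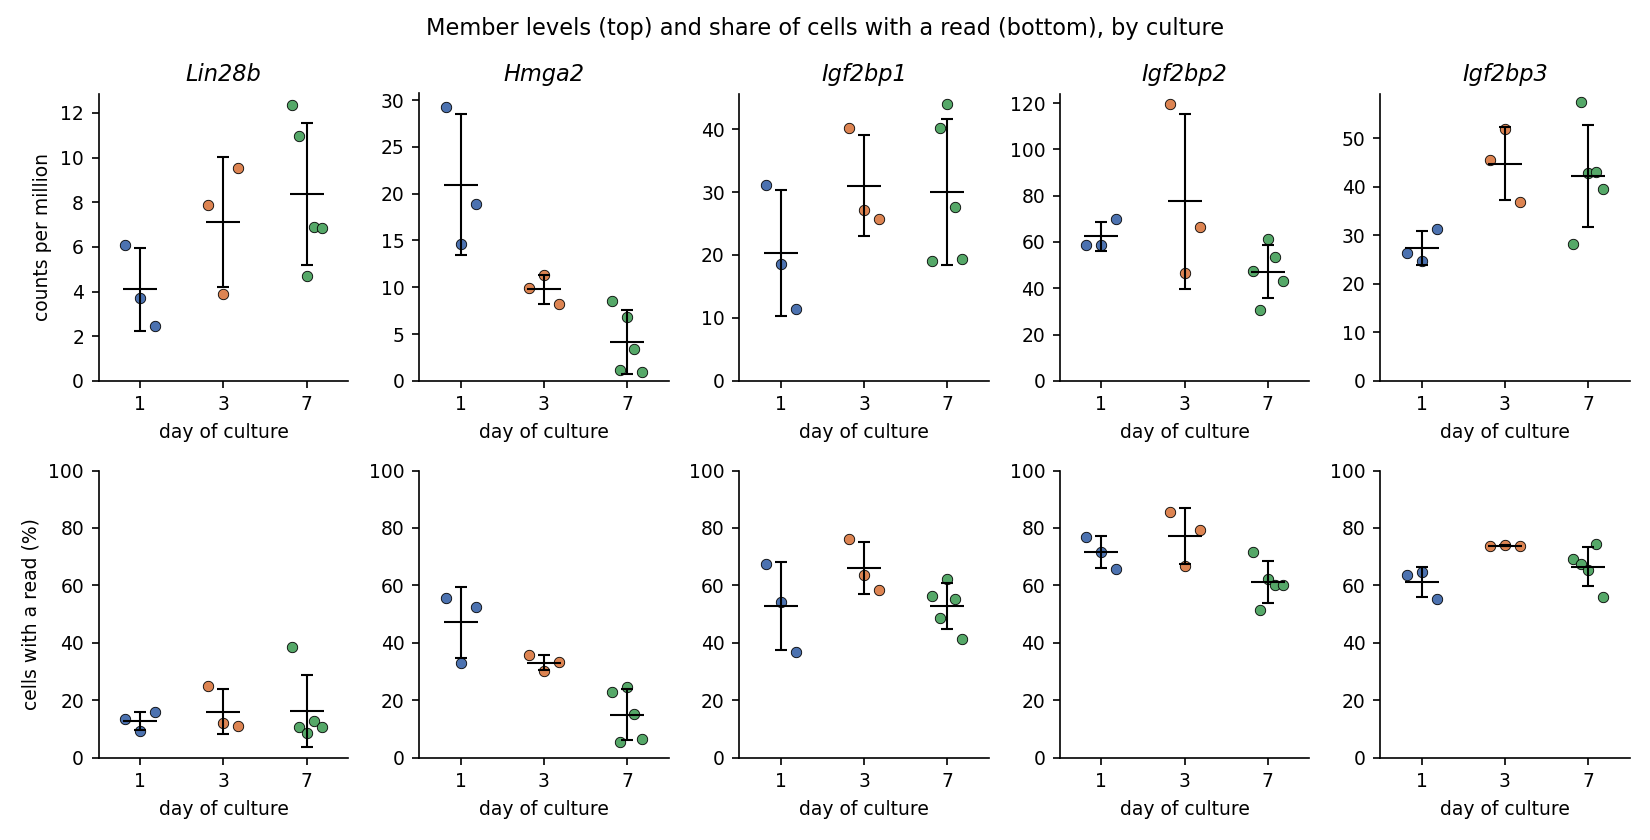
Level of each member in CPM (top row) and percent of cells with a read after thinning (bottom row) against the day of culture, with 1 point per culture and bars for the mean ± SD. Hmga2 lies between 14.7 and 29.3 CPM on day 1 and between 0.975 and 8.49 on day 7; the other 4 genes overlap between days 1 and 7.

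Lin28b, the let-7 antagonist, had the lowest level per kilobase of the 5 on days 1 and 3. It was at 6.10, 3.71 and 2.46 CPM on day 1 and at 7.86, 3.91 and 9.55 CPM on day 3. On day 7 it was at 12.4, 10.99, 4.72, 6.90 and 6.86 CPM. The days overlapped, although 14 of the 15 pairs of a day 7 and a day 1 culture had the higher level on day 7. The fitted log2 difference of day 7 from day 1 was 1.03 (adjusted p = 0.222 with edgeR, SE 0.49). A read of Lin28b was found in 13.5%, 9.41% and 15.8% of cells on day 1 and in 25%, 12.1% and 11.1% on day 3. On day 7 it was found in 38.5%, 10.8%, 8.70%, 12.8% and 10.7% of cells, with culture 1 standing apart. The few cells with a read carried much of the total, since the top cell gave 13.4% to 47.6% of a culture's Lin28b reads. Its paralog Lin28a had 17 reads in 3 cultures.

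Igf2bp1 was at 31.2, 18.5 and 11.4 CPM on day 1 and at 40.3, 27.1 and 25.7 CPM on day 3. On day 7 it was at 18.99, 40.2, 44.0, 27.6 and 19.4 CPM. These ranges overlapped throughout, and day 1 culture 1 was above 3 of the 5 day 7 cultures. Its fitted log2 difference was 0.60 (adjusted p = 0.738 with edgeR, SE 0.42) from day 1 to day 3 and 0.56 (SE 0.38, adjusted p = 0.414) from day 1 to day 7. A read was present in 52.8% ± 15.3 of cells on day 1 (SD, n = 3), 66.1% ± 9.17 on day 3 (n = 3) and 52.8% ± 8.03 on day 7 (n = 5).

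Igf2bp2, the member that stays expressed in many adult tissues, was at 58.8, 58.9 and 69.8 CPM on day 1. On day 3 it was at 119.7, 46.5 and 66.5 CPM, and on day 7 at 47.7, 30.7, 61.2, 53.5 and 42.9 CPM. Day 3 culture 1 was the highest of all 11 cultures, and only day 7 culture 3 was above the lower pair of day 1 cultures. The fitted log2 difference was -0.40 (adjusted p = 0.439 with edgeR, SE 0.29) from day 1 to day 7 and -0.72 (SE 0.29, adjusted p = 0.329) from day 3 to day 7. It had a read in 71.5% ± 5.57 of cells on day 1 (SD, n = 3), 77.2% ± 9.68 on day 3 (n = 3) and 61.1% ± 7.29 on day 7 (n = 5).

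Igf2bp3 was at 26.3, 24.6 and 31.3 CPM on day 1 and at 45.6, 51.8 and 36.8 CPM on day 3. On day 7 it was at 28.2, 57.5, 42.7, 43.1 and 39.5 CPM. Day 3 lay above day 1 without overlap, and on day 7 only culture 1 was within the range of day 1. The log2 fold change from day 1 was 0.71 (SE 0.27, edgeR adjusted p = 0.453) on day 3 and 0.62 (SE 0.24, adjusted p = 0.136) on day 7. The share of cells with a read was 61.1% ± 5.13 on day 1 (SD, n = 3), 73.9% ± 0.323 on day 3 (n = 3) and 66.5% ± 6.75 on day 7 (n = 5).

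From day 1 to day 3, none of the 5 members was called by edgeR, against 0.0115% of all genes tested. Hmga2 had a log2 fold change of -1.09 (SE 0.71, adjusted p = 0.710) and Lin28b 0.80 (SE 0.53, adjusted p = 0.720). DESeq2 and limma called none either, and with each of the 3 tools 1 member, Igf2bp3, had an unadjusted p under 0.05, as 9.26% of all genes had with edgeR. The CPM of Hmga2 and Igf2bp3 did not overlap between these days, as was the case for 18% of all genes. From day 3 to day 7 none was called by edgeR, against 0.968% of all genes, and none by DESeq2 or limma. The count at an unadjusted p under 0.05 was 1 with edgeR (Igf2bp2), 2 with DESeq2 (Hmga2 and Igf2bp2) and 1 with limma (Hmga2), beside 11.8% of all genes with edgeR. No member was free of overlap between these days, where 8.13% of all genes were. The comparisons with day 1 share its cultures and are not independent. None of the 15 differences in the share of cells passed the exact permutation test after adjustment, and 3 had an unadjusted p under 0.05, day 7 against days 1 and 3 for Hmga2 and day 7 against day 3 for Igf2bp2. Comparisons of 3 against 3 cultures cannot go below p = 0.1, and no single comparison of shares could pass this adjustment by itself.

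**Figure D3:**
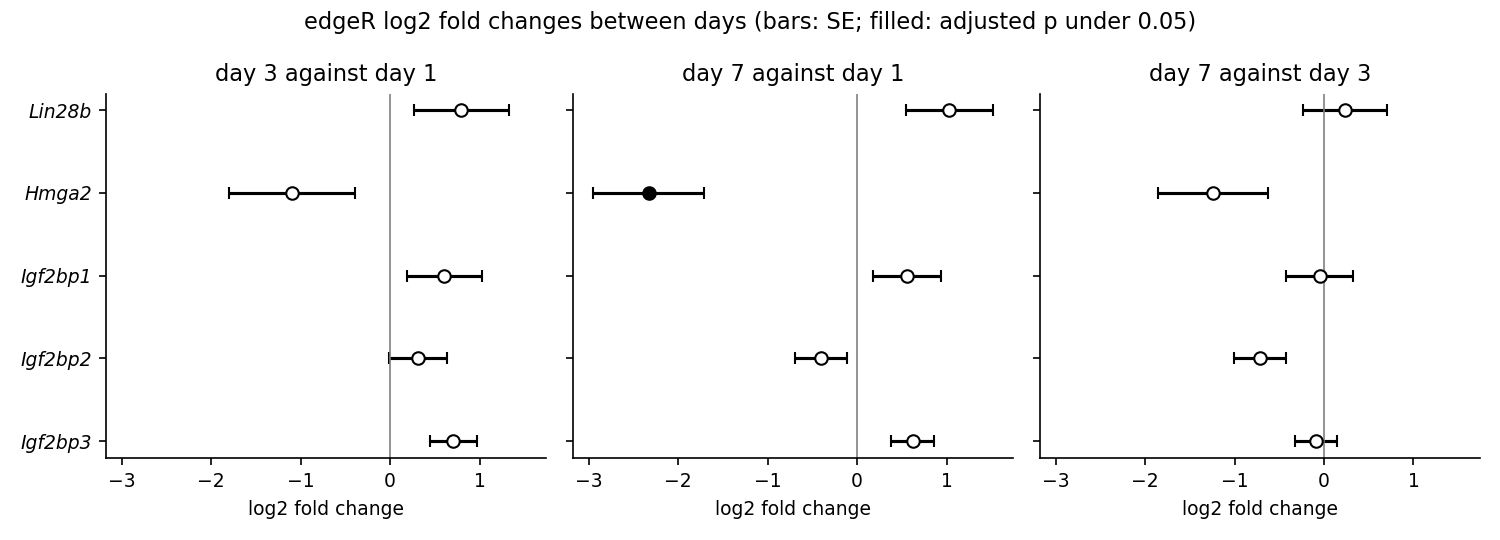
Log2 fold change of each member between days from edgeR, with bars for 1 SE and a filled point where the adjusted p is under 0.05. Only Hmga2 from day 1 to day 7, at -2.33, is filled.

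Cells often carried several of the 5 transcripts, slightly more often than their separate shares give. Of the 695 cells at 200000 reads, 39 had a read of none of the 5, 126 of 1, 203 of 2, 208 of 3, 103 of 4 and 16 of all 5. The mean number per cell was 2.45 on day 1, 2.69 on day 3 and 2.09 on day 7. Lin28b and Igf2bp1 shared 74 cells where their shares within each culture gave 60.0, a ratio of 1.23, which was above 1 in 10 of 11 cultures. For the other 9 pairs the ratio ran from 1.04 to 1.15, and it is a description of cells that also share their depth and quality. Over the 11 cultures, log2 CPM of Hmga2 and Igf2bp3 had a Pearson r of -0.60, and Igf2bp1 and Igf2bp3 of 0.58, given with no test since the points share their days. After the day means were removed these were -0.46 and 0.36.

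The next question was whether the members went with cell division. In each culture, cells with and without mitotic transcripts were summed apart and compared with edgeR with the culture as a block. None of the 5 members was called, against 13.6% of the 13234 genes tested. DESeq2 called none, and with both tools 1 member, Igf2bp1, had an unadjusted p under 0.05, as 25.4% of all genes had with edgeR. Igf2bp1 was at 10.8 to 39.5 CPM in non-cycling cells (median 27.0, n = 11 cultures) and at 13.4 to 52.9 CPM in cycling cells (median 28.7). It was higher in cycling cells in 8 of 11 cultures, the exceptions being day 3 cultures 1 and 3 and day 7 culture 4, with a log2 difference of 0.42 (SE 0.16, edgeR adjusted p = 0.109). Igf2bp2 went the other way in 10 of 11 cultures, at a median of 55.4 CPM in non-cycling and 51.7 CPM in cycling cells, with a log2 difference of -0.16 (SE 0.11, adjusted p = 0.377). No member had the same direction in all 11 cultures, where 6.85% of genes did. Hmga2 was higher in cycling cells in 7 of 11 cultures, with medians of 5.87 CPM in non-cycling and 10.9 CPM in cycling cells and a log2 difference of 0.88 (SE 0.61, adjusted p = 0.414). For Lin28b the difference was -0.32 (SE 0.79, adjusted p = 0.855), with lower levels in cycling cells in all 3 day 1 cultures and in 4 of the other 8. Igf2bp3 was higher in 5 of 11 cultures, with a log2 difference of 0.11 (SE 0.16, adjusted p = 0.737). Cycling cells had more genes with a read in 10 of 11 cultures after thinning, and the part of this in the differences was not tested.

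**Figure D4:**
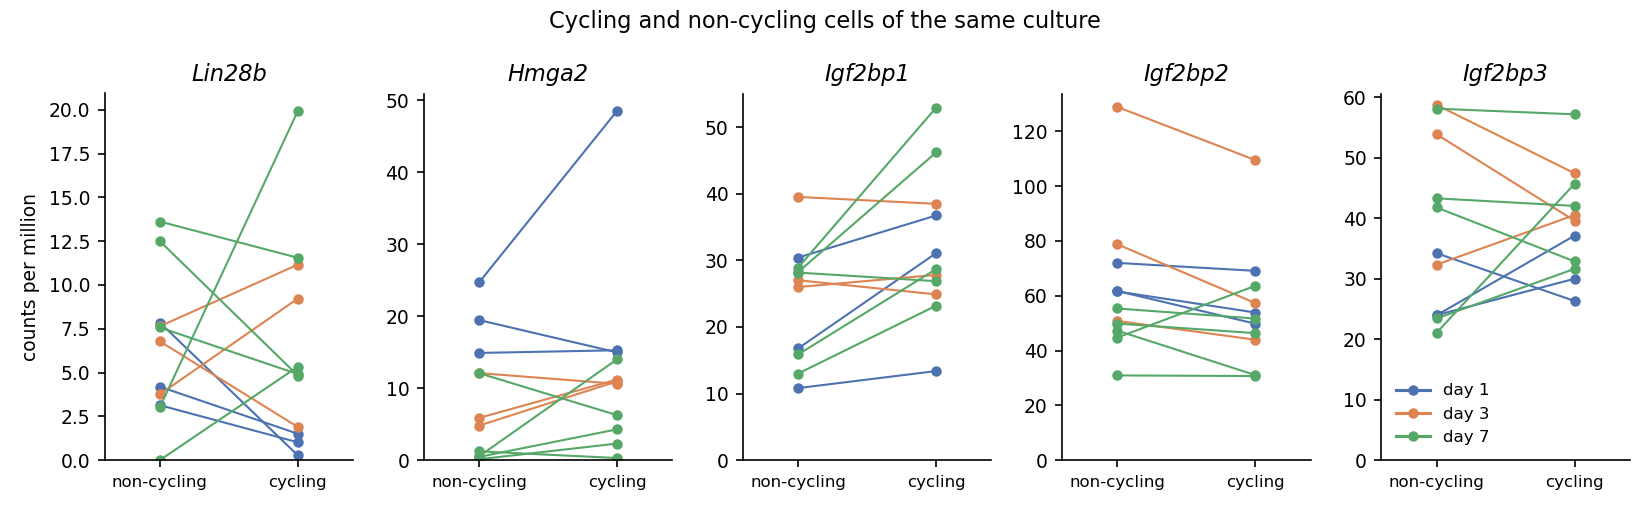
CPM of each member in non-cycling and cycling cells, with a line for each of the 11 cultures, coloured by day. For Igf2bp1 8 of 11 lines rise to the cycling cells, and for Igf2bp2 10 of 11 lines fall.

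The fall of Hmga2 was not shared by the other genes for high mobility group (HMG) proteins, abundant chromatin proteins that bend DNA or bind nucleosomes. Of the 8 others listed, 5 rose from day 1 to day 7, 0 fell, and the median log2 fold change was 0.93, beside 7.11% of genes called and a median of 0.00 over all genes tested. Hmgb2, which marks dividing cells, rose from 134.8 ± 51.7 CPM (SD, n = 3) to 510.2 ± 180.3 (n = 5), a fitted log2 change of 1.92 (adjusted p = 0.0112 with edgeR, SE 0.37). Hmgb3 rose by 1.498 on this scale (SE 0.26, adjusted p = 0.00636), Hmgn2 by 1.28 (SE 0.27, adjusted p = 0.0154), Hmgb1 by 1.19 (SE 0.23, adjusted p = 0.0102) and Hmgn1 by 0.66 (SE 0.15, adjusted p = 0.021). Hmga1, the closest relative of Hmga2 and also a let-7 target, went from 10.3 ± 1.52 to 15.2 ± 3.50 CPM (log2 fold change 0.56, SE 0.29, adjusted p = 0.254), and its estimated counts are uncertain where reads fit more than 1 place. Of these 8 genes 7 were higher in cycling cells by the same test within cultures, where 13.6% of all genes were called, Hmgb2 by 2.40 (SE 0.11, adjusted p = 2.005e-08), while Hmgn3 was at -0.05 (SE 0.08, adjusted p = 0.793). The count of 5 risen genes was 1 without day 1 culture 1 and 3 without day 1 culture 2. It was 0 in non-cycling cells alone, where the median was 0.54 and only 182 of 15253 genes tested were called. Hmgb1 and Hmgn2 have many processed copies in the genome, between which estimated counts can be split.

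The insulin-like growth factor (IGF) axis holds Igf2, the ligand whose mRNA gives the IGF2BP family its name. Of 13 axis genes tested, 4 fell from day 1 to day 7 and 0 rose, beside 7.11% of all genes called, with a median log2 fold change of -0.66. Igf2, a fetal growth factor, fell from 69.1 ± 14.1 CPM (SD, n = 3) to 20.9 ± 0.939 on day 3 (n = 3) and 8.21 ± 7.95 on day 7 (n = 5), with a fitted log2 change of -3.08 (adjusted p = 0.0118 with edgeR, SE 0.61) between days 1 and 7. Igf1r, the receptor of IGF1 and IGF2, fell by 1.45 (SE 0.24, adjusted p = 0.00565), from 78.8 ± 22.4 to 28.9 ± 7.17 CPM. Igfbp3, a secreted protein that binds IGFs, fell by 1.45 (SE 0.19, adjusted p = 0.00174), from 668 ± 100.5 to 244.1 ± 49.8 CPM. Igf1 fell from 4.30 ± 2.46 to 0.0928 ± 0.0617 CPM (adjusted p = 0.00636), and the medium contained IGF1 protein. Igfbp2, Igfbp3 and Igfbp5 were lower in cycling cells, by 1.25 (SE 0.23), 1.03 (SE 0.15) and 1.39 (SE 0.19) on the log2 scale, with adjusted p = 0.00201, 0.000217 and 0.000141. These were 3 of 10 axis genes tested there, beside 13.6% of all genes called. In non-cycling cells alone none of the axis genes tested was called between days 1 and 7, beside 182 of 15253 genes, and the median was -0.43. There Igf2 was at -3.26 on the log2 scale (SE 0.73, edgeR adjusted p = 0.0524), Igf1r at -1.73 (SE 0.40, adjusted p = 0.0567) and Igf1 at -5.002 (SE 1.93, adjusted p = 0.244), about as low as in all cells, while Igfbp3 was at -0.75 (SE 0.30, adjusted p = 0.252).

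**Figure D5:**
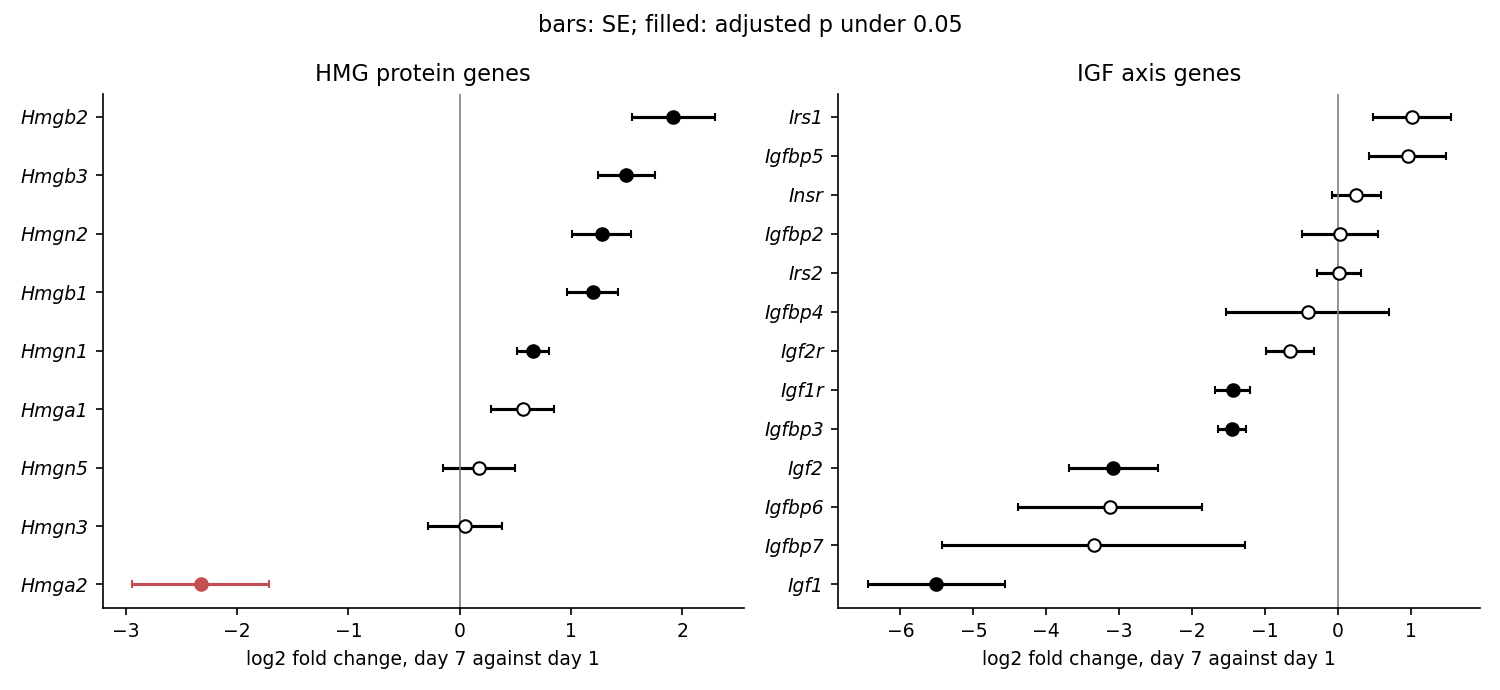
Log2 fold change from day 1 to day 7 for HMG protein genes (left, Hmga2 in red) and IGF axis genes (right), with bars for 1 SE and filled points where the edgeR adjusted p is under 0.05. Hmga2 at -2.33 is the lowest of the HMG genes, of which Hmgb2 at 1.92 is the highest, and the 4 filled IGF axis genes lie below 0.

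Known mRNA targets of the IGF2BP proteins did not move as 1 group. Of 8 tested, 2 fell from day 1 to day 7, beside 7.11% of all genes called. They were Igf2, already counted in the IGF axis, and Ptgs2, which makes prostaglandins. Ptgs2 was at 26.9 ± 27.0 CPM (SD, n = 3) on day 1, 27.0 ± 36.2 on day 3 (n = 3) and 0.639 ± 0.984 on day 7 (n = 5), with a fitted log2 change of -5.32 (adjusted p = 0.0283 with edgeR, SE 1.28). Actb, the classic zipcode target, was at -0.14 (SE 0.16, adjusted p = 0.652) and Myc at -1.16 (SE 0.75, adjusted p = 0.381). The median of the 8 was -0.20, and 1 of the 2 calls was lost without day 1 culture 1, day 1 culture 2 or day 7 culture 3. Of the 9 proteins that join IGF2BPs in RNA granules, 1 rose between these days, Elavl1, by 0.72 (SE 0.19, adjusted p = 0.0437), a call that was lost in 10 of the 11 fits that left out a culture. Beside 7.11% of all genes called, this 1 call is no result about the list. With the replicate block 2 of the 9 rose. In cycling cells 6 of the 9 were higher (G3bp1, Hnrnpu, Ybx1, Fmr1, Syncrip and Elavl1), by 0.44 to 0.75 on the log2 scale. Over all genes 13.6% were called in that comparison.

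Other known let-7 targets went both ways, and 20 of the 28 listed hold a seed match in their longest annotated UTR. Of 26 tested, 2 rose from day 1 to day 7 and 1 fell, with a median log2 fold change of -0.26. Beside 7.11% of all genes called, these 3 calls are no result about the list. Rrm2, a subunit of ribonucleotide reductase, rose by 1.66 (SE 0.37, edgeR adjusted p = 0.0215) and the transcription factor gene Mycn by 1.19 (SE 0.30, adjusted p = 0.035), and Igf1r fell as above. The searched UTR of Mycn held no match, while that of Rrm2 held 1 and that of Igf1r 2. Of the genes named next, Ccnd1 and Thbs1 also held no match. The count of 2 risen targets was 0 without day 1 culture 1 or 2, 1 without day 3 culture 1 or 3 or day 7 culture 1, 2 or 3, and 4 without day 7 culture 5 or with the replicate block. In cycling cells 4 of the 24 targets tested were higher, among them Rrm2 by 3.28 (SE 0.36, adjusted p = 2.454e-05), Ccnd1 and Hmga1, and 1, Thbs1, was lower, a call lost in 7 of 11 omissions of a culture. Over all genes 13.6% were called there. The 20 tested genes of let-7 processing and silencing had 0 calls between days with edgeR. The smallest adjusted p from day 1 to day 7 was that of Tnrc6b (log2 fold change -0.72, SE 0.24, adjusted p = 0.0946), followed by Prkra (0.49, SE 0.22, adjusted p = 0.188) and Dis3l2 (1.21, SE 0.54, adjusted p = 0.199). In cycling cells Xpo5, the exporter of microRNA precursors, was higher by 0.94 (SE 0.30, adjusted p = 0.0484) and Syncrip by 0.44 (SE 0.11, adjusted p = 0.0141), and 1 of these 2 calls was lost in 9 of 11 omissions. With 2 of 19 tested genes called, beside 13.6% of all genes, these are no result about the list. Mature let-7 is not captured by this method, and of the 13 let-7 genes and hosts listed only the host transcript Mir99ahg, with 5827 reads, was tested (log2 fold change -0.15, SE 0.36, adjusted p = 0.851 from day 1 to day 7).

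Cdkn2b of the Ink4 locus, a cell cycle inhibitor gene, fell from 12.8 ± 12.2 CPM (SD, n = 3) on day 1 to 0.740 ± 0.564 on day 7 (n = 5), a fitted log2 change of -4.11 (adjusted p = 0.0319 with edgeR, SE 1.03). Omitting day 1 culture 1 or 2, or culture 1, 2 or 3 of day 7, ended this call. Of 9 imprinted growth genes 3 fell, Igf2, Meg3 by 2.40 (SE 0.38, adjusted p = 0.00395) and the cell cycle inhibitor gene Cdkn1c by 2.13 (SE 0.37, adjusted p = 0.00707), and 0 rose, beside 7.11% of all genes called. Igf2 is also counted in the IGF axis and among the IGF2BP targets, so that these lists are not separate. In cycling cells Meg3 was lower by 1.28 (SE 0.23, adjusted p = 0.00128) and Peg3 higher by 0.61 (SE 0.16, adjusted p = 0.016). These were 2 of 8 imprinted genes tested there, beside 13.6% of all genes called. H19, the imprinted neighbour of Igf2, went from 0.0948 ± 0.164 CPM on day 1 to 1.63 ± 1.55 on day 7 (adjusted p = 0.24).

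For each member, the 3 genes whose log2 CPM went most closely with it over the 11 cultures were taken from 6625 genes with a mean of at least 20 CPM. They describe these cultures, which share their days, and carry no test. For Hmga2 they included Utrn (Pearson r = 0.93) and Suds3 (r = 0.92). For Lin28b they were Khdrbs1 (r = 0.91), Rlim (r = 0.88) and Lypd6 (r = 0.88). Igf2bp1 had Wbp11 (r = 0.91), Slc16a1 (r = 0.90) and Tarbp2 (r = 0.88), a partner of Dicer. Igf2bp2 had Ccng1 (r = 0.90), Hk2 (r = 0.88) and Mgat1 (r = 0.88). Igf2bp3 had Vps36 (r = 0.94), Acp6 (r = 0.94) and Ublcp1 (r = 0.92).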

How the data were processed

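Values are RSEM expected counts, not normalised, which the authors deposited in 2 tables of 384 cells each. The days were not balanced over them. The first held cultures 1 to 4 of day 7 with culture 1 of days 1 and 3, and the second held the others. STAR 2.5.3a, RSEM 1.3.0 and the builds mm10 and GRCm38 are named per the submitters' processing notes. Gene identifiers matched GENCODE M21 (GRCm38) for 99.6% without and 93.2% with the version. Non-gene rows took 0.00451% of reads. Counts were rounded, cells were kept at 50000 reads, 1500 genes and at most 20% mitochondrial reads, and retained cells were summed per culture. Days were compared with edgeR 4.0.16 in R 4.3.3 (TMM, filterByExpr, quasi-likelihood test, 1 fit over 11 cultures, Benjamini-Hochberg over all genes, called under 0.05), which also gave TMM-scaled CPM. Same-numbered cultures of days 1 and 7 had correlations of 0.18, 0.23 and 0.21 in their deviations from the day means (6801 genes). Differently numbered pairs of these days ran from -0.26 to 0.21, the highest within 1 deposited file (day 1 culture 2, day 7 culture 5). The next of the differently numbered pairs was at 0.16, below all same-numbered pairs. The labels do not say whether the numbers link cultures, and these correlations do not settle it. The fit with the replicate number as a block therefore stands beside results it changes, among them the call of Hmga2 (edgeR adjusted p = 0.0836). DESeq2 1.42.0 and limma 3.58.1 were alternatives. Cycling cells had a read in at least 3 of 6 mitotic genes. The scripts were tested on simulated data. The 5 genes and the gene lists were chosen with earlier results of these data known. Named genes are the 5 members, the 3 genes most like each, and of each list the called genes, or up to 3 with the smallest adjusted p. Some genes that this rule names are not reported here. Reads are PCR copies without molecular identifiers.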

Additional observations from a re-analysis of the deposited data

Results flagged for a closer look

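With 5 cultures on day 7, a culture was singled out where its gap to the nearest other exceeded 0.71 of the whole range, which chance gives in about 1 of 20 groups. Of 15 such groups (level, share of cells and cycling difference of the 5 members), 2 held such a culture. Day 7 culture 1 had a read of Lin28b in 38.5% of its 39 cells (exact 95% Clopper-Pearson interval 23.4% to 55.4%), against 8.70% to 12.8% in the other 4. Its Lin28b level was 12.4 CPM, the highest of the 5, next to 10.99 CPM in culture 2. Day 7 culture 4 had a log2 difference of -0.065 for Igf2bp1 between cycling and non-cycling cells, against 0.69 to 0.85 in the other 4 cultures. None of the 15 differences of the cycling effect between days passed edgeR's interaction test (adjusted p 0.638 to 1.000, added after seeing the data).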

How the results depend on the processing

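From day 1 to day 7 the count of members called (1, Hmga2) became 0 with the stricter cell filter. With the replicate block it was also 0, and Hmga2 had a log2 fold change of -2.07. In non-cycling cells only it was 0 too, and 182 of 15253 genes were called there. Leaving out 1 culture at a time it ran from 0 to 1. It stayed 1 in the other alternatives that kept more than 1 culture of each day. The log2 fold change of Hmga2 was negative in all 23 alternatives, from -4.10 to -2.07. The value of -4.10 is from the second file alone, which holds only culture 5 of day 7. The first file alone, with only culture 1 of day 1, gave -2.59 (added after seeing the data). The 0 counts in cycling cells, between days 1 and 3 and between days 3 and 7 stayed 0 under each alternative run. For shares of cells the count was 0 in all 16 alternatives, but in the 6 that left out a day 1 or day 3 culture no adjusted p under 0.05 could be reached (smallest possible 0.0536), so that those 6 show nothing. In the others it could be reached only with several comparisons at their smallest p together, so that they show little. Same-numbered cultures had correlations of 0.41, 0.36 and 0.03 between days 3 and 1, and of 0.11, 0.02 and -0.03 between days 7 and 3. Differently numbered pairs ran from -0.39 to 0.11 between days 3 and 1, and from -0.30 to 0.34 between days 7 and 3. These values do not settle whether the numbers link cultures. The main fit used no replicate block. The replicate block changed no member's call other than that of Hmga2 from day 1 to day 7. Signs turned only for values that no test called. Igf2bp2 from day 1 to day 3 was -0.21 in the second file alone and -0.18 to 0.58 leaving out cultures. From day 3 to day 7, Lin28b was -0.012 with the file as a term and -0.059 to 0.50 leaving out cultures, Igf2bp1 was 0.22 with the replicate block and -0.23 to 0.15 leaving out cultures, and Igf2bp3 was -0.22 to 0.034 leaving out cultures. In cycling cells, Lin28b was 0.40 with a threshold of 2 genes, 0.080 in day 3 and 0.82 in day 7 cultures alone and -0.68 to 0.017 leaving out cultures, and Igf2bp3 was -0.12 in day 3 cultures alone. The causes were not tested. With DESeq2 size factors all fold changes against day 1 shifted by about -0.07, and Hmgn3 turned to -0.02. With 35 to 1008 reads of Hmga2 and 65 to 514 of Lin28b per culture, many cells sat at the limit of detection.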
